A study of Mus musculus with 10 samples.

Results

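The genes of 10 small calcium-signalling proteins, Necab1, Necab2, Necab3, Calb1, Calb2, Pvalb, Pcp4, Ppp1r17, Hpca and Ncald, were followed in single retinal ganglion cells (RGCs), the neurons whose axons form the optic nerve. They are 10 of the 34254 genes counted, were matched by symbol, and were chosen by measured values, namely their levels in these libraries, the cell groups they mark in uninjured RGCs and their change after optic nerve crush (ONC). Their levels and changes are therefore given as a description, and the calls of the fit across all genes are counted for them without being read as support. The study profiled RGCs by scRNA-seq in 6 libraries from uninjured eyes and 4 libraries from eyes 2 weeks after ONC, which severs the RGC axons. All mice were of the 129S1/SvImJ strain, 12 weeks old, and of both sexes according to the labels. Retinas were pooled, 10 per batch, and RGCs were captured with an antibody against Thy1 once macrophages and amacrine cells had been depleted by immunopanning. The libraries are replicates by their labels, which do not say whether they came from separate animals, so that p-values cover only the spread between libraries.

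Calcium enters an RGC when it fires, and proteins with EF-hand loops bind it. Some of these proteins, such as calbindin, calretinin and parvalbumin, act mainly as buffers and are long-used markers of retinal cell types, whereas others, such as hippocalcin, are sensors that change shape on binding calcium and act on partner proteins. Necab proteins are EF-hand proteins of neurons, Pcp4 is a small protein that binds calmodulin, and Ppp1r17 is an inhibitor of protein phosphatases that is best known from cerebellar Purkinje cells.

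The calcium-binding loops show what most of the proteins share. A search of the coding sequence of the canonical GENCODE transcripts (mm39) with PROSITE's EF-hand pattern found 1 loop in Necab1 and in Necab3, 2 in Necab2 and in Pvalb, 3 in Hpca and in Ncald, 4 in Calb1, 5 in Calb2, and none in Pcp4 and Ppp1r17. The pattern misses loops that depart from it, so these counts are of matches alone. One loop of each protein with a match is given here as its 36 coding bases, all exonic, with the codons at positions 1, 3, 5 and 12 of the loop in capitals, since the residues at these positions hold the calcium ion. The loops of the 3 Necab genes are joined across an intron and span chr4:15111277-15140234 (Necab1, reverse strand), chr8:120176836-120178846 (Necab2, forward strand) and chr2:154397587-154398986 (Necab3, reverse strand). The others lie within 1 exon, at chr4:15895644-15895679 (Calb1, forward strand), chr8:110875994-110876029 (Calb2, reverse strand), chr15:78086726-78086761 (Pvalb, reverse strand), chr4:129012175-129012210 (Hpca, reverse strand) and chr15:37397319-37397354 (Ncald, reverse strand).
Necab1, loop 1: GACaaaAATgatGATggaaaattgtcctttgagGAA
Necab2, loop 1: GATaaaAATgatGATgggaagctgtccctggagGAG
Necab3, loop 1: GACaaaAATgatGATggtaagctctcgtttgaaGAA
Calb1, loop 2: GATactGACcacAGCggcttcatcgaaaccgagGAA
Calb2, loop 3: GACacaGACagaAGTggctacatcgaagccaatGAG
Pvalb, loop 1: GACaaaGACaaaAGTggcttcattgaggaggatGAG
Hpca, loop 2: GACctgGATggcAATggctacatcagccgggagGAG
Ncald, loop 2: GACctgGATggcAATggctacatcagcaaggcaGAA

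In a global alignment of the translated proteins, Hpca and Ncald, of 193 residues each, were 88.1% identical. Calb1 (261 residues) and Calb2 (271 residues) were 58.1% identical. Within the Necab family, Necab1 (352 residues) and Necab3 (353 residues) were 44.8% identical, and Necab2 (389 residues) was 39.5% identical to Necab1 and 36.2% identical to Necab3.

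The files held 1683 uninjured and 1609 injured cells. UMIs (tags that each mark 1 captured RNA molecule) of Tubb3, Sncg, Rbpms and Slc17a6, genes that mark RGCs, were present in each of these cells. Uninjured libraries comprised 2839693 to 23180399 UMIs, with a median cell of 20437 to 34337 UMIs, and injured libraries comprised 4698799 to 8860536 UMIs, with a median cell of 11257 to 14695 UMIs. Injured 3 and injured 4 shared 421 cell barcodes, against at most 1 for any other pair of libraries, and their counts were averaged and treated as a single sample (injured 3/4), so 6 uninjured samples were compared with 3 injured ones. Injured 3 and 4 also carried a viral reporter, with mCherry UMIs in 86.0% and 84.3% of cells. Injured 1 and 2 held it in 7.99% and 15.02% of cells, and each uninjured library in 0% of cells. The reporter was thus found in injured libraries alone, so that virus and injury are not separated between conditions. The part of the virus in the changes after ONC was not tested. Xist, which cells of females express, had a UMI in 62.1% of cells for injured 1 and 67.4% for injured 2, whereas no other library exceeded 0.569%, so that sex cannot be told apart from the library pair, and its part in the results was not tested. Injured 1 and 2 alone and injured 3 and 4 alone were therefore also compared with the uninjured libraries. The summed level of 9 amacrine cell markers, all detected in at least 1 library, was 56.7 to 218 CPM in uninjured and 255 to 325 CPM in injured libraries. C1ql2 carried that rise, at 7.06 to 30.1 CPM before and 173 to 218 CPM after ONC, whereas the other 8 markers summed to 49.6 to 188 CPM and 51.6 to 143 CPM, ranges that overlapped. Of the other classes, the 8 Mueller glia markers summed to 205 to 284 CPM before and 290 to 450.1 CPM after ONC, a sum carried by Clu (70.8 to 121 and 183 to 318 CPM) and Glul in a list that moved both ways, since Dkk3 went from 68.7 to 117 CPM to 10.5 to 18.7 CPM. The 3 horizontal cell markers summed to 72.2 to 127 CPM and 37.8 to 46.8 CPM, nearly all of it Septin4, with Lhx1 at 0 in every library. Their part in the results was not tested.

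Levels are given as CPM, the UMIs of a gene relative to all UMIs of a sample after TMM scaling, and are compared within a gene. In summed counts, fewer cells that express a gene and less RNA per cell cannot be told apart. All 10 genes passed the filter on low counts. Every member was lower in injured RGCs and all 10 had an adjusted p under 0.05 in edgeR's quasi-likelihood test, where 22.7% of the 14234 genes tested were called lower. For 8 of the 10, every injured sample was below every uninjured one, which held for 21.1% of all genes. Because the genes were chosen by this change, nothing is read from these counts. The median log2 fold change of the members was -3.17, that of all genes tested was -0.03, and the members ranged from -5.81 to -0.91.

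**Figure D1:**
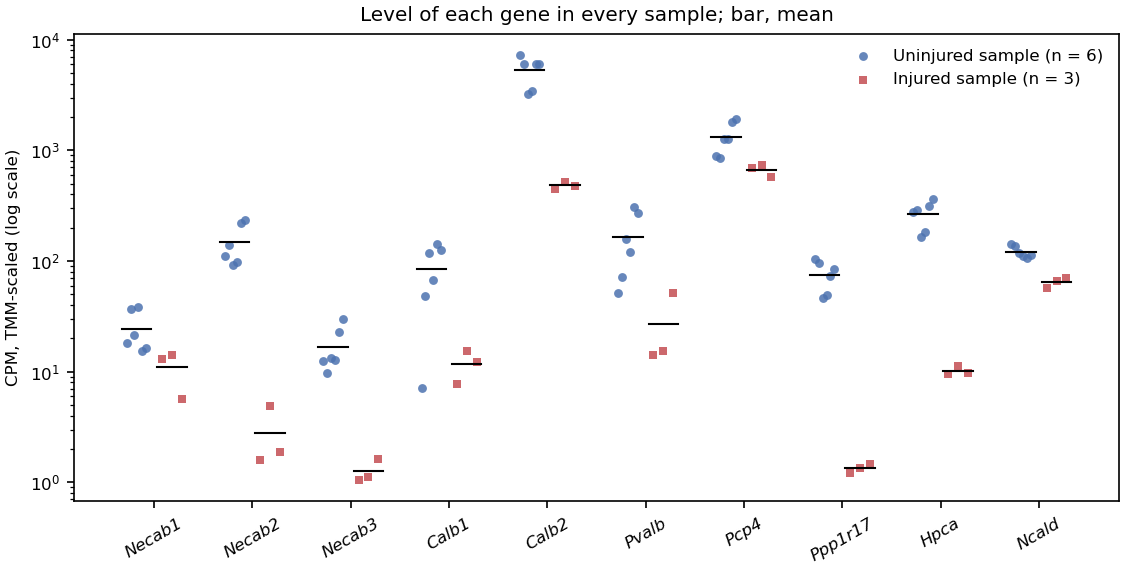
TMM-scaled CPM (log axis) of each gene in the 6 uninjured samples (circles) and the 3 injured samples (squares), with bars at the means. Necab2, Ppp1r17 and Hpca lie far apart between conditions, whereas the lowest uninjured sample of Calb1 (7.07 CPM) lies below all 3 injured samples.

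Of the Necab genes, Necab2 had the largest decrease. Necab2 (ENSMUSG00000031837.16) occupies chr8:120173399-120199379 on the forward strand and overlaps no other annotated gene. Its level in uninjured samples had a lowest value of 91.5, a median of 126 and a highest value of 236 CPM, and its level was 1.58, 4.94 and 1.88 CPM in injured 1, injured 2 and injured 3/4. Uninjured 5 and 6 were highest, at 221 and 236 CPM, and no uninjured sample came near the injured ones. The mean was 150 ± 63.4 CPM (SD, n = 6) before and 2.80 ± 1.86 CPM (SD, n = 3) after ONC, a log2 fold change of -5.81 (SE 0.51). Only 27 of the genes tested fell further, since Necab2 ranked 28 from the largest decrease. The injured values rest on 58 UMIs in the 4 libraries, against 6668 in the uninjured ones.

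Necab3 (ENSMUSG00000027489.17), which is known to bind the amyloid precursor protein-binding protein Apba2, lies at chr2:154386304-154400950 on the reverse strand and overlaps 2 protein-coding genes of the opposite strand, 1700003F12Rik and Actl10. Its level was 9.81 to 29.9 CPM in uninjured samples, with a median of 12.9 CPM, and 1.05, 1.12 and 1.61 CPM in injured 1, injured 2 and injured 3/4. As for Necab2, uninjured 5 and 6 were highest and no sample overlapped. The log2 fold change was -3.68 (SE 0.46), with 812 UMIs in uninjured and 35 UMIs in injured libraries. Necab1 (ENSMUSG00000040536.17), at chr4:14952242-15149794 on the reverse strand, overlaps 3 genes of the opposite strand. It had 15.3 to 38.3 CPM in uninjured samples, with a median of 19.8 CPM, and 13.1, 14.2 and 5.64 CPM in injured 1, injured 2 and injured 3/4. The conditions nearly met, since the highest injured sample was at 14.2 CPM and the lowest uninjured sample at 15.3 CPM. The log2 fold change of -1.19 (SE 0.38) was the smallest of the family.

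Necab1 was the member that moved most when cells with transcripts of other classes were left out. Its log2 fold change was -2.32 without cells that held 3 or more markers of another retinal class, and -2.15 without cells with any UMI of Gad1, Gad2, Slc32a1 or Slc6a9, which mark amacrine cells. The first filter left out 24.9% to 57.5% of cells in uninjured and 13.6% to 25.6% in injured libraries. The second left out 15.4% to 59.8% and 33.5% to 41.6%. Both were applied to cells that were not thinned, so that they depend on depth, and the part of depth was not tested. In the same settings the values for Necab2 were -6.21 and -5.71. Of the amacrine genes, Gad1 had a UMI in 8.79% of thinned cells before and 6.46% after ONC, and Slc6a9 in 3.92% and 13.7%, and their part in the remaining level of Necab1 was not tested.

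Ppp1r17 (ENSMUSG00000002930.8) occupies chr6:55989619-56009674 on the forward strand and overlaps no other gene. Its level was 46.7 to 104 CPM in uninjured samples, with a median of 78.5 CPM, and 1.23, 1.35 and 1.48 CPM in injured 1, injured 2 and injured 3/4. The injured samples lay close together, and uninjured 3 and 4, at 46.7 and 48.9 CPM, were the lowest of the uninjured ones. The mean fell by 5.76 on the log2 scale (SE 0.39), from 75.3 ± 23.7 CPM (SD, n = 6) to 1.35 ± 0.126 CPM (SD, n = 3), and Ppp1r17 ranked 31 from the largest decrease. The injured value rests on 35 UMIs, against 3224 UMIs in uninjured libraries.

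The bases before the start of the canonical transcripts of Necab2 and Ppp1r17 are shown, because these genes decreased together and by like amounts. The sequences were read from the mm39 genome, on the strand of the gene, and bases that any annotated exon covers were left out. Letters in capitals match TGANTCA (the AP-1 motif) or CAGCTG (an E-box), searched on both strands. The stretches are chr8:120173188-120173398 (Necab2, 211 bases, ending 39 bases before the start) and chr6:55994202-55994451 (Ppp1r17, 250 bases up to the start).
Necab2: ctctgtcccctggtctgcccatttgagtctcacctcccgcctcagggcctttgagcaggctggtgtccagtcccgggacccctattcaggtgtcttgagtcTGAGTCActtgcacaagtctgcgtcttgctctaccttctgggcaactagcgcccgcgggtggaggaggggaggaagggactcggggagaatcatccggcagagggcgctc
Ppp1r17: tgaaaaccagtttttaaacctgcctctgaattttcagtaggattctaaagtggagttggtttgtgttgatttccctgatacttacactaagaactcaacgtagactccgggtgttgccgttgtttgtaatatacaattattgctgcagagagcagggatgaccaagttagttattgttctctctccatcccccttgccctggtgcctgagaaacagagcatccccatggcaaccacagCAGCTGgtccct

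The match to TGANTCA began 149 bases before the start of the canonical transcript of Necab2. The match to CAGCTG began 12 bases before that of Ppp1r17. The stretch shown for Ppp1r17 lies within the annotated gene, which begins upstream of this transcript. Among the 250 bases before each of 21738 protein-coding genes, 6.18% held TGANTCA, 11.9% held CAGCTG and 1.70% held TGACGTCA (the CRE). Of the 10 members, 2 held TGANTCA (Necab2 and Ncald), 1 held CAGCTG and 0 held TGACGTCA in this window. The window of Hpca is covered by annotated exons over 200 of its 250 bases and is not shown. These are matches of letters and do not show binding.

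Hippocalcin and neurocalcin delta are near-identical neuronal calcium sensors that move to membranes when they bind calcium. Hpca (ENSMUSG00000028785.15), at chr4:129005306-129015916 on the reverse strand, overlaps the end of Tmem54 on the opposite strand. It had 164 to 362 CPM in uninjured samples, with a median of 284 CPM, and 9.46, 11.2 and 9.67 CPM in injured 1, injured 2 and injured 3/4. The conditions were far apart, and the log2 fold change was -4.71 (SE 0.32), which ranked 53 from the largest decrease. Ncald (ENSMUSG00000051359.17), at chr15:37363739-37792843 on the reverse strand, overlaps 14 annotated genes, mostly noncoding, some of them on the same strand, so that its counts may be shared. It had 106 to 142 CPM in uninjured samples, with a median of 116 CPM, and 56.7, 66.5 and 69.6 CPM in injured 1, injured 2 and injured 3/4. The injured samples were below all uninjured ones. Its log2 fold change of -0.91 (SE 0.14) was the smallest of the 10 members, and its uninjured samples were the most alike, with a coefficient of variation of 12.2%. Injured RGCs thus held 53.0% of the uninjured level of Ncald and 3.81% of that of Hpca.

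**Figure D2:**
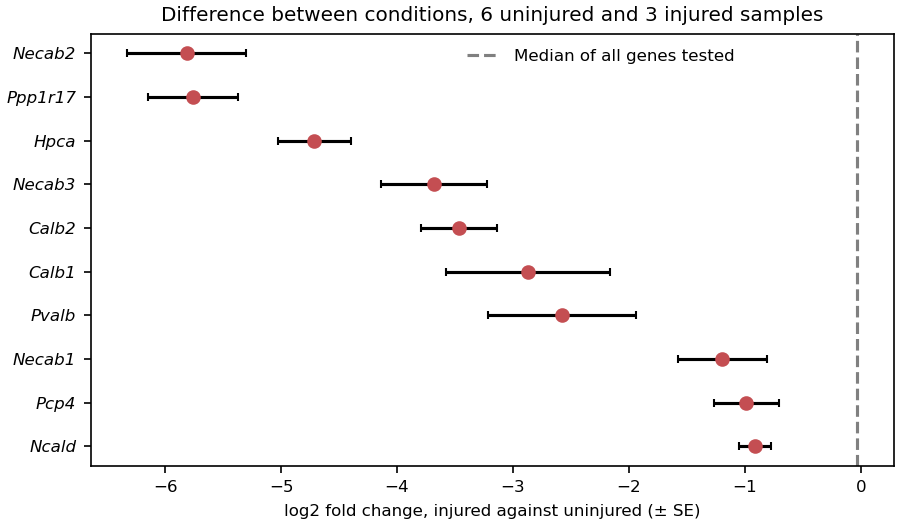
Log2 fold change of each gene, injured against uninjured (points, with bars of ± 1 SE), ordered by size, from 6 uninjured and 3 injured samples. The dashed line marks the median of all genes tested (-0.03), and the members run from -5.81 (Necab2) to -0.91 (Ncald).

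Of the buffers, calretinin (Calb2, ENSMUSG00000003657.11, chr8:110864128-110894881, reverse strand) had 3196 to 7269 CPM in uninjured samples, with a median of 6041 CPM. It had 450, 521 and 479 CPM in injured 1, injured 2 and injured 3/4, which were close together and far below the uninjured samples. The log2 fold change was -3.47 (SE 0.33). Calbindin (Calb1, ENSMUSG00000028222.4, chr4:15881155-15908085, forward strand) had 7.07 to 143 CPM in uninjured samples, with a median of 92.7 CPM, and 7.70, 15.3 and 12.3 CPM in injured 1, injured 2 and injured 3/4. Uninjured 1, at 7.07 CPM, was below every injured sample, whereas the other uninjured samples were above them. The log2 fold change was -2.87 (SE 0.70). Parvalbumin (Pvalb, ENSMUSG00000005716.18, chr15:78075314-78091149, reverse strand) had 51.2 to 305 CPM in uninjured samples, with a median of 139 CPM, and 14.2, 15.5 and 51.3 CPM in injured 1, injured 2 and injured 3/4. The conditions met at uninjured 1 (51.2 CPM) and injured 3/4 (51.3 CPM). The log2 fold change was -2.58 (SE 0.64), and it was -1.67 with injured 3 and 4 alone and -3.44 with injured 1 and 2 alone.

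Pcp4 (ENSMUSG00000090223.4, chr16:96268806-96326997, forward strand), which speeds the exchange of calcium at calmodulin, overlaps Gm49948, an annotated protein-coding gene of the same strand, over most of its length, and counts of these genes may not be separable. It had 851 to 1919 CPM in uninjured samples, with a median of 1265 CPM, and 694, 742 and 576 CPM in injured 1, injured 2 and injured 3/4. Uninjured 1 and 2, at 893 and 851 CPM, were closest to the injured samples and did not overlap with them. The log2 fold change was -0.99 (SE 0.28).

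The decrease was also seen in the share of cells with a UMI. Cells were thinned to 8000 UMIs each, which kept 1654 uninjured and 1376 injured cells and left out 29 and 233 shallower ones. A UMI of Necab2 was then present in 55.1% ± 8.24 of the uninjured cells (SD, n = 6) and 2.18% ± 1.95 of the injured ones (SD, n = 3). Without thinning the shares were 78.0% and 3.71%. Ppp1r17 was found in 34.9% ± 8.28 and 1.06% ± 0.483 of thinned cells, and in 54.6% and 1.89% of cells without thinning. Hpca was found in 79.9% ± 11.2 and 6.04% ± 0.987 of thinned cells, and in 95.6% and 9.63% without thinning. The files hold RGCs alone, so no other cell type gave a background share from free RNA. The injured share of Ppp1r17 was 0.654% to 1.59% over samples and that of Necab3 was 0.774% to 1.31%, and whether these shares exceed such a background was not tested.

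For Calb2 and Pcp4 most injured cells still held a UMI. Calb2 was present in 93.4% ± 1.77 of thinned uninjured cells and 71.0% ± 5.38 of thinned injured cells, and a cell with Calb2 held a mean of 51.2 and 5.87 UMIs of it. Pcp4 was found in 83.1% ± 3.54 and 79.4% ± 5.83 of thinned cells, ranges that overlapped, with 12.2 and 6.26 UMIs per cell that held it. Ncald was found in 57.2% ± 5.42 and 37.2% ± 3.41 of thinned cells. The mean shares of thinned cells before and after ONC were 10.3% and 4.20% for Necab1, 10.0% and 0.959% for Necab3, 14.5% and 4.24% for Calb1, and 30.9% and 3.29% for Pvalb.

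**Figure D3:**
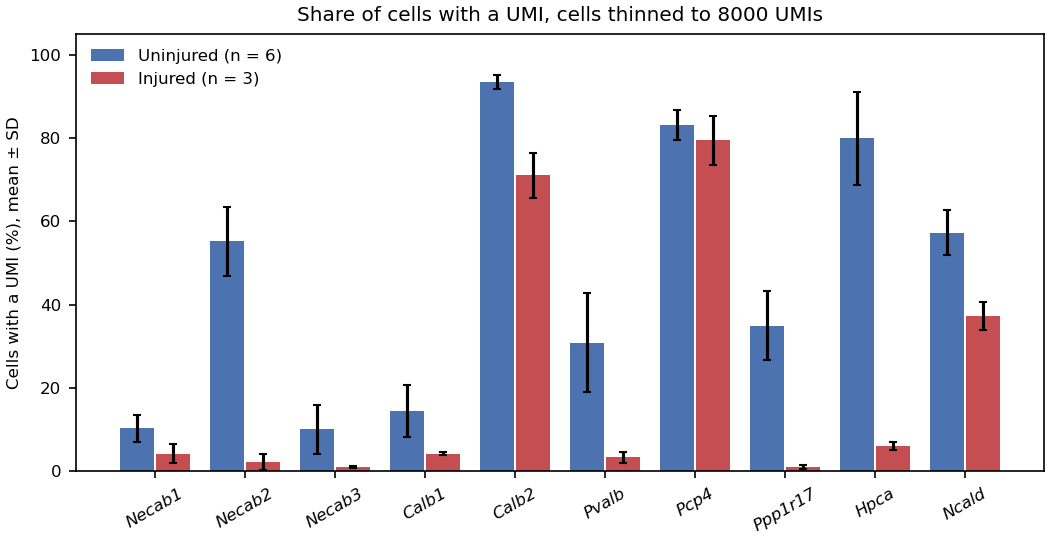
Share of cells with at least 1 UMI of each gene (%, mean with bars of 1 SD over 6 uninjured and 3 injured samples), with cells thinned to 8000 UMIs. Necab2 went from 55.1% to 2.18% and Hpca from 79.9% to 6.04%, whereas Pcp4 stayed near 80%, at 83.1% and 79.4%.

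A thinned uninjured cell held a mean of 4.33 to 5.16 of the 10 members over the libraries, and an injured cell held 1.96 to 2.21. At least 1 of Necab2, Ppp1r17 and Hpca was present in 80.0% to 95.5% of the cells of an uninjured library and in 5.29% to 11.9% of those of an injured library. All 3 were found together in 11.2% to 26.5% of uninjured cells, and in no injured cell.

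The injured cells with a UMI of any of Necab2, Ppp1r17 and Hpca numbered 20, 30, 40 and 19 in injured 1 to 4, with shared barcodes listed in both of the last. Genes that axon injury is known to induce were lower in them than in the injured cells with none of the 3 genes, and these injury genes were chosen with earlier results known. Atf3, a stress-induced transcription factor, was at 319, 533, 291 and 336 CPM in such cells of injured 1 to 4, and at 753, 747, 714 and 739 CPM in the cells with none. Ecel1, a neuronal protease, was at 250, 683, 222 and 178 CPM against 999, 850, 692 and 646 CPM. Sprr1a, a gene induced in regenerating axons, was at 131, 192, 43.8 and 382 CPM against 545, 554, 508 and 508 CPM. Sox11, a transcription factor of axon growth, was at 588, 800, 394 and 395 CPM against 1171, 1137, 1004 and 1072 CPM. The direction was the same for the 4 genes in injured 1, in injured 2 and in injured 3 and 4, which share cells and count as 1 sample, and no test was made, since the cells were split by the members' own values. Of the RGC marker Rbpms, these cells had 294, 258, 478 and 500 CPM, against 312, 305, 329 and 332 CPM in the cells with none, so that its direction differed between libraries. Gad1, a gene of amacrine cells, was at 75.0, 37.5, 12.5 and 13.2 CPM against 21.9, 17.5, 6.25 and 5.51 CPM, and its part in the result was not tested. The viral reporter mCherry was also lower in the cells with any of the 3 genes. It was at 0, 200, 1922 and 1612 CPM against 93.1, 321, 2402 and 2171 CPM, and its part was not tested.

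The members differed in where they were found among uninjured RGCs. The 1683 uninjured cells were grouped into 33 clusters without use of the 10 genes, and the level of a gene in a cluster is its mean CPM over the libraries with at least 5 cells of it. Clusters are called by number and leading genes, and a type is given only where at least 3 markers of it were found. By this rule, clusters 17 and 25 were melanopsin type-like and clusters 4 and 16 Neurod2 type-like. Cluster 19 was Tfap2d type-like, cluster 27 direction-selective type-like and cluster 33 F type-like. Clusters 31 and 32 rest on 1 library each.

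Necab2 was highest in cluster 25 (Tbx20, Prph), at 498 ± 158 CPM (SD, n = 4 libraries), followed by cluster 18 (Runx1, Lypd1) at 410 ± 154 CPM, cluster 9 (Pcdh20, Foxp2) at 383 ± 118 CPM and cluster 30 (Calca, Calcb) at 358 ± 157 CPM. These neighbours did not differ beyond the spread between libraries. Its median over clusters was 97.0 CPM, and it was nearly missing from cluster 33 (Coch, Ano2), at 0.956 CPM, and cluster 29 (Trhr, Mmp17), at 3.57 CPM. Cluster 25 was melanopsin type-like, and the other cluster of that type, cluster 17, had 23.4 ± 13.5 CPM of Necab2. Ppp1r17 was more restricted. It was highest in cluster 1 (Lypd1, Gcnt2), at 346 ± 94.0 CPM (SD, n = 6 libraries), above cluster 9, at 189 ± 42.5 CPM, and the lowest library of cluster 1 (258 CPM) was above the highest library of cluster 9 (241 CPM). Its median over clusters was 21.5 CPM. Hpca was the most even of the members, from 106 CPM in cluster 31 (Pde11a, Npy) to 443 ± 148 CPM in cluster 22 (Htr2c, Pdgfc), with 440 CPM in clusters 2 (Sptssb, Hspb1) and 9.

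Calb2 was found at 14951 ± 1927 CPM in cluster 2 and at 13322 ± 3999 CPM in cluster 1, and at 67.6 ± 84.7 CPM in cluster 17, a melanopsin type-like cluster with Opn4 and Eomes among its leading genes. Calb1 was at 1187 CPM in cluster 27 (Bnc2, Col25a1), 846 CPM in cluster 31 in 1 library and 509 ± 224 CPM in cluster 20 (Ppp1r1c, Chrm2). It was at 0 CPM in clusters 6, 19 and 23. Pvalb was highest in cluster 22, at 929 ± 298 CPM, and in cluster 20, at 713 ± 148 CPM, ranges that overlapped, and it was at 0 CPM in cluster 17. Pcp4 was at 3951 ± 1073 CPM in cluster 30 and at 18.3 ± 19.0 CPM in cluster 18, so that cluster 18 was high in Necab2 and nearly free of Pcp4. Ncald was at 264 CPM in cluster 23 (Slc17a8, Tmem132d) and at 32.0 ± 7.55 CPM in cluster 4 (Prlr, Penk). Necab3 had the opposite place, with its highest mean in cluster 4, at 62.9 ± 28.3 CPM, beside cluster 30 at 62.4 ± 23.6 CPM and cluster 16 (Neurod2, Penk) at 59.6 ± 23.0 CPM.

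Necab1 was highest in cluster 32 (Prom1, Slc6a9), at 262 CPM in 1 library, and in clusters 10 (Gad1, C1ql2) and 28 (Tfap2b, Gad1), at 153 ± 41.3 and 130 ± 89.4 CPM. These clusters carry amacrine cell markers among their leading genes, and 100% of the cells of clusters 10 and 28 and 89.5% of those of cluster 32 held at least 3 markers of another retinal class. Cluster 14 (Igfbp5, Epha3), in which 57.1% of cells did so, had 117 ± 18.1 CPM of Necab1. No amacrine marker was among those found for cluster 14. Over the uninjured libraries, 24.9% to 57.5% of cells held at least 3 markers of another class. The study's preparation depleted amacrine cells, and whether Necab1 in these clusters comes from RGCs was not tested. Without uninjured cells that held such markers, 21 clusters were found, in which the range of Necab2 narrowed from 7.996 to 4.03 on the log2 scale and that of Calb2 from 8.96 to 4.85, whereas that of Necab3 widened from 4.03 to 6.03, that of Ncald from 3.01 to 3.46 and that of Ppp1r17 from 8.44 to 8.73. That setting changed both the cells and the clusters, and which of these moved the ranges was not tested. In that setting the highest cluster mean was 149 CPM for Necab1, 427 CPM for Necab2 and 761 CPM for Calb1, and the range of Hpca was 1.96.

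**Figure D4:**
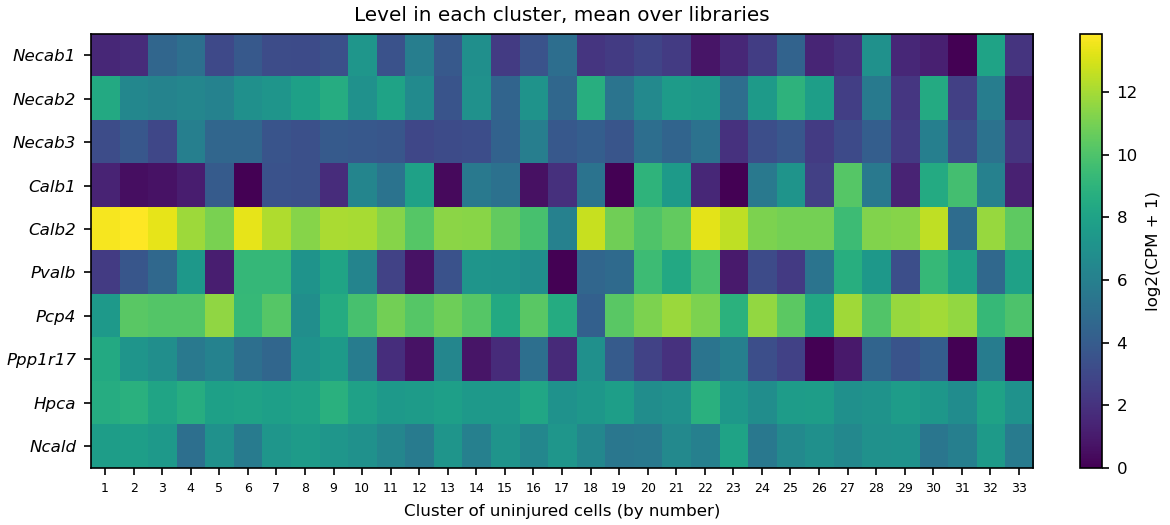
Level of each gene, as log2(CPM + 1) of the mean over libraries, in the 33 clusters of uninjured cells (columns, by number). Hpca is present in every cluster (106 to 443 CPM), whereas Calb1, Ppp1r17 and Pvalb change from 0 CPM to 1187, 346 and 929 CPM between clusters.

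Over the 33 clusters, the members most alike were Ppp1r17 and Hpca (Pearson r = 0.68 on log2(CPM + 1)), Calb2 and Ppp1r17 (0.66) and Calb2 and Hpca (0.61). The most opposed were Calb1 and Hpca (-0.61) and Calb1 and Ppp1r17 (-0.49). These correlations describe clusters of the same libraries and carry no p. Among 6558 genes with at least 50 CPM in a cluster, the genes most like each member were Pdcd4, Rbbp4 and Mapk3 for Necab2 (r = 0.73, 0.68 and 0.67), Plekhh2, Glmn and Trarg1 for Ppp1r17 (0.77, 0.76 and 0.73) and Phyhipl, Cox6b2 and Abhd14a for Hpca (0.79, 0.75 and 0.73). They were Ret and D130079A08Rik for Calb2 (0.78 and 0.75), Fam13c, Pard3b and Tnrc18 for Ncald (0.81, 0.72 and 0.72) and Armh4, Rgs4 and Togaram1 for Calb1 (0.68, 0.68 and 0.68). They were Egfr, Pdgfd and Slc32a1 for Necab1 (0.77, 0.76 and 0.73), of which Slc32a1 is an amacrine marker. They were Shisa4, Ankrd29 and Fhit for Pcp4 (0.66, 0.58 and 0.57) and Napa, Dnttip1 and Tmem179 for Necab3 (0.67, 0.66 and 0.62), and Napepld was among those of Pvalb (0.66).

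Pairs of members were also compared in single uninjured cells thinned to 8000 UMIs. Ppp1r17 was found in 3.97% ± 3.37 of the cells with Calb1 and in 39.8% ± 8.22 of the cells without it (SD, n = 6), and it was lower with Calb1 in 6 of 6 libraries, of which uninjured 1 had 4 cells with Calb1. Necab2 was found in 58.3% ± 8.38 of the cells with Calb2 and in 11.3% ± 11.7 of the cells without it, and Ppp1r17 in 37.4% ± 9.10 and 1.01% ± 2.47. Both were higher with Calb2 in 6 of 6 libraries, but few cells lacked Calb2, which was found in 87 of 95 cells of uninjured 1 and 96 of 102 cells of uninjured 2. Hpca was found in 87.8% ± 9.45 of cells with Ppp1r17 and 75.5% ± 11.3 of the others, and Ncald in 69.3% ± 7.39 and 50.6% ± 4.51. For the pairs of Hpca with the buffers, Hpca was found in 80.9% of cells with Calb2 and 65.5% of cells without it, higher in 5 of 6 libraries, and in 68.8% of cells with Calb1 and 81.8% of cells without it, lower in 6 of 6 libraries.

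Cells with at least 2 UMIs of a marker of an RGC type, after thinning, were compared in both conditions. The markers themselves changed with ONC, so that the same marker may pick other cells after injury. Cells with Cartpt, a gene of direction-selective RGCs, made up 34.9% of uninjured and 2.80% of injured cells, and those with Opn4, the melanopsin gene, 4.21% and 3.40%. Fewer than 5 cells per injured library held Neurod2, Tbr1 or Zic1 in this way, and these were not compared. Shared barcodes of injured 3 and 4 were counted once in the numbers of cells below.

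In Foxp2 cells, Hpca was at 314 ± 144 CPM (SD, n = 6) before and 4.55 ± 2.14 CPM (SD, n = 3) after ONC. Necab2 in these cells was at 224 ± 95.7 and 4.73 ± 6.46 CPM. Ppp1r17 was at 91.4 ± 36.7 CPM before ONC, and had a UMI in 0 of 88 injured Foxp2 cells, which allows a share of up to 3.41% of cells with a UMI at this depth and does not limit the share that expresses the gene. None of the 3 genes overlapped between conditions in these cells. In Opn4 cells, Hpca was at 148 ± 67.4 and 57.1 ± 44.1 CPM, with a UMI in 49 of 51 cells before and 20 of 38 cells after ONC, and the samples overlapped. Necab2 was at 35.6 ± 29.4 and 16.7 ± 9.58 CPM in Opn4 cells, also with overlap. Calb2, at 154 ± 189 and 162 ± 122 CPM, and Pcp4, at 580 ± 626 and 816 ± 588 CPM, had higher means after ONC in Opn4 cells, with overlap. These values depended on the number of UMIs of Opn4 that a cell had to hold. With at least 1 UMI, the means went from 503 to 240 CPM for Calb2, from 1207 to 1004 CPM for Pcp4 and from 80.4 to 9.46 CPM for Necab2, and Hpca, at 145 and 32.3 CPM, no longer overlapped. With at least 3 UMIs, which left 5 uninjured and 2 injured samples, Calb2 was at 124 and 115 CPM, Pcp4 at 517 and 514 CPM, Necab2 at 27.6 and 24.3 CPM, and Hpca, at 125 and 68.7 CPM, overlapped. In Foxp2 cells, Calb2 was at 4449 ± 1549 and 598 ± 107 CPM. The difference between Opn4 and Foxp2 cells in these changes was not tested.

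Eomes cells, which include the melanopsin type, had Hpca at 177 ± 59.0 CPM (SD, n = 6) and 65.7 ± 45.9 CPM (SD, n = 2). Cartpt cells had Hpca at 300 ± 74.4 and 54.6 ± 21.6 CPM, and Tfap2d cells had a mean of 217 CPM (140 to 323 over 4 samples) and of 9.93 CPM (2.99 to 22.6 over 3 samples). Necab2 had a UMI in 0 of 52 injured Tfap2d cells, which allows up to 5.77% of cells with a UMI, against 59 of 121 uninjured ones. Hpca was lower after ONC in the mean of each of the 6 marker groups compared (Opn4, Eomes, Foxp2, Cartpt, Tfap2d, and Spp1, which had 1 uninjured sample of 5 cells), with log2 differences from -5.82 to -1.36 on the log2(CPM + 1) scale. With at least 3 UMIs of the marker these ranged from -5.25 to -0.16, the latter in Eomes cells, at 131 and 118 CPM in 4 uninjured samples and 1 injured sample.

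**Figure D5:**
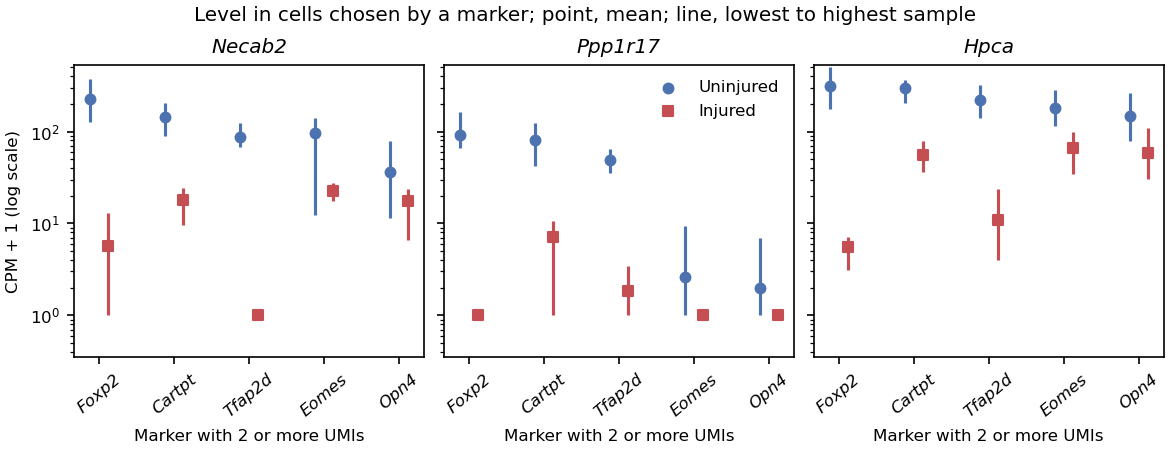
CPM + 1 (log axis) of Necab2, Ppp1r17 and Hpca in cells with at least 2 UMIs of a marker, uninjured (circles) and injured (squares), with points at the means and lines from the lowest to the highest sample. Conditions are far apart in Foxp2 and Tfap2d cells, whereas in Opn4 cells Hpca (148 and 57.1 CPM) and Necab2 (35.6 and 16.7 CPM) overlap.

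Within injured 3 and 4, cells with and without mCherry UMIs were compared, 453 and 74 in injured 3 and 397 and 74 in injured 4. Hpca was at 9.67 and 9.60 CPM in cells with mCherry and at 7.96 CPM in cells without it, in both libraries. Calb2 was at 511 and 514 CPM with mCherry and at 112 and 228 CPM without it, and Pvalb at 53.1 and 60.7 against 8.96 and 5.31 CPM. Pcp4 was at 627 and 596 CPM with mCherry and at 197 and 228 CPM without it. Necab1 went the other way in injured 3, at 4.455 CPM with mCherry and 17.9 CPM without it. In injured 4 it was at 5.07 and 3.98 CPM. Without mCherry, injured 3 and 4 held 18 and 3 UMIs of Necab1, 9 and 4 of Pvalb and 8 and 6 of Hpca. Injured 3 and 4 share cells and are not replicates of each other. Injured 1 and 2, in which 7.99% and 15.02% of cells held mCherry, had 14.2 and 15.5 CPM of Pvalb.

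Other genes of calcium and phosphatase signalling were taken from 4 lists, and were tested in the same edgeR fit with Benjamini-Hochberg adjustment over all genes. Across all genes, 44.0% were called in either direction, 22.7% lower and 21.3% higher. Of 33 calcium sensors and EF-hand proteins 26 were tested, of which 10 fell, 5 rose and 11 did not pass the threshold. Vsnl1, a sensor of the same family as hippocalcin, fell from 737 ± 142 to 119 ± 26.8 CPM (log2 fold change -2.63, SE 0.23, edgeR adjusted p = 3.42e-06). Caln1 fell from 323 ± 65.0 to 60.4 ± 10.9 CPM (log2 fold change -2.42, SE 0.22, edgeR adjusted p = 5.29e-06). S100a10, the partner of annexin A2, rose from 373 ± 93.3 to 978 ± 101 CPM (log2 fold change 1.39, SE 0.21, edgeR adjusted p = 2.02e-04). Pdcd6 rose from 52.4 ± 11.8 to 90.3 ± 4.54 CPM (log2 fold change 0.79, SE 0.17, edgeR adjusted p = 2.94e-03). The median log2 fold change of this list was -0.08, near that of all genes.

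All 30 genes of the list of calmodulin and its targets were tested, of which 12 fell, 7 rose and 11 did not pass the threshold (median log2 fold change -0.38). Nrgn, neurogranin, which holds calmodulin when calcium is low, fell from 297 ± 135 to 9.65 ± 4.32 CPM (log2 fold change -4.97, SE 0.49, edgeR adjusted p = 9.41e-06). Camkv, a kinase-like protein that binds calmodulin, fell from 56.8 ± 12.2 to 5.07 ± 0.771 CPM (log2 fold change -3.49, SE 0.24, edgeR adjusted p = 6.57e-07). Camk1, a calmodulin-dependent kinase, rose from 66.7 ± 18.8 to 507 ± 76.3 CPM (log2 fold change 2.93, SE 0.22, edgeR adjusted p = 1.09e-06). Gap43, a growth cone protein that binds calmodulin, rose from 397 ± 71.8 to 2578 ± 194 CPM (log2 fold change 2.70, SE 0.17, edgeR adjusted p = 3.38e-07).

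Of 31 genes of calcium pumps, exchangers and stores 29 were tested, of which 13 fell, 7 rose and 9 did not pass the threshold (median log2 fold change -0.42). Itpr1, an IP3 receptor that releases calcium from the endoplasmic reticulum, fell from 119 ± 25.6 to 38.5 ± 4.04 CPM (log2 fold change -1.63, SE 0.20, edgeR adjusted p = 5.75e-05). Slc8a1, a sodium-calcium exchanger, fell from 281 ± 48.6 to 114 ± 16.4 CPM (log2 fold change -1.31, SE 0.18, edgeR adjusted p = 1.11e-04). Hspa5, an endoplasmic reticulum chaperone that binds calcium, rose from 145 ± 22.5 to 444 ± 69.9 CPM (log2 fold change 1.62, SE 0.16, edgeR adjusted p = 8.89e-06). Stim2, a sensor of calcium in that store, rose from 36.4 ± 5.45 to 67.8 ± 4.74 CPM (log2 fold change 0.90, SE 0.14, edgeR adjusted p = 3.08e-04).

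Of 39 subunits and inhibitors of PP1 and PP2A, the phosphatases that Ppp1r17 is known to act on, 37 were tested, of which 9 fell, 12 rose and 16 did not pass the threshold (median log2 fold change 0.02). Ppp1r14b, of a family of PP1 inhibitors, rose from 39.5 ± 13.9 to 159 ± 29.99 CPM (log2 fold change 2.01, SE 0.24, edgeR adjusted p = 4.54e-05). Ppp1r1a, inhibitor 1 of PP1, rose from 81.4 ± 21.9 to 212 ± 17.5 CPM (log2 fold change 1.38, SE 0.20, edgeR adjusted p = 1.81e-04). Ppp2cb, a catalytic subunit of PP2A, fell from 54.5 ± 8.50 to 24.9 ± 2.33 CPM (log2 fold change -1.13, SE 0.16, edgeR adjusted p = 1.42e-04). Ppp1r7, a regulatory subunit of PP1, fell from 145 ± 15.4 to 77.7 ± 1.69 CPM (log2 fold change -0.90, SE 0.13, edgeR adjusted p = 1.67e-04). Other PP1 inhibitors of the list fell, among them Ppp1r14c (log2 fold change -1.33), which was chosen after its values were seen. In each of the 4 lists genes moved in both directions.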

How the data were processed

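The deposited values are UMI counts for each gene in each cell selected as an RGC by the authors, without normalization. The submitters' processing notes name Cell Ranger 7.0.1 and mm39. The labels name a v3 kit and a NovaSeq, whereas the methods name a v2 kit and a HiSeq. The counts of the cells in a library were added up with Python 3.11.15 and scanpy 1.11.5, and injured 3 and 4 were averaged with rounding. edgeR 4.0.16 in R 4.3.3 was used to test these sums (filterByExpr, TMM, robust quasi-likelihood fit, Benjamini-Hochberg adjustment at 0.05 over 14234 genes), which was checked on simulated data. The SE was taken from the fold change and the F statistic.

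The members and lists were chosen with earlier results of these data known. Besides the 10 members, the text names from each list the 2 largest rises and the 2 largest falls among called genes whose conditions did not overlap and whose average log2 CPM reached 5, and for each member with a range of at least 2 (log2) over clusters the 3 genes most like it. Some genes that these rules name are not reported here. Clusters were made with Leiden (2000 variable genes without the members, 30 components, 15 neighbours, resolution 1.5). No doublet caller was run, and cells with at least 3 markers from a different class were left out in 1 alternative. Positions and coding sequences are from GENCODE vM39. The limit given beside a count of 0 corresponds to 3 counts, and covers counting error alone. The 30 alternatives comprised DESeq2 1.42.0, limma-voom (limma 3.58.1), other scalings, filters on genes and cells, other sample sets, and the omission of each library. Cells chosen by a marker were also taken with at least 1 and at least 3 of its UMIs in place of 2. Clusters were also made at other resolutions and without cells that held markers from a different class. Replicate numbers 1 to 4 occur in both conditions, but the deviations of samples with the same number did not go together.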

Additional observations from a re-analysis of the deposited data

How the results depend on the processing

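All 10 members were lower in injured samples under each of the 30 alternatives that could test them (Necab2, Necab3 and Ppp1r17 could not be tested with at least 10 counts in every library, where 7 members were called). Because the members were chosen by this change, their direction and calls over the alternatives are a description and no sign of stability. With cells of 3 to 5% Malat1 UMIs, which left 7 and 8 cells in uninjured 5 and 6, 6 members were called, and the log2 fold change was -0.58 for Necab1, -4.59 for Necab2, -2.68 for Necab3, -0.40 for Pvalb, -0.49 for Pcp4 and -3.33 for Hpca. That setting called 3528 genes in all and 48 of the list genes, against 6256 and 75 in the main analysis, and injured 3 and 4 alone called 3160 and 39, with 7 members. The cause was not tested. With injured 1 and 2 alone 8 members were called, and with similar libraries summed 9. The calls lost were those of Necab1 (Malat1 window, injured 1 and 2 alone), Calb1 and Pvalb (Malat1 window, injured 3 and 4 alone) and Pcp4 (in these 3 settings and with similar libraries summed). With each library left out, 4961 to 6420 genes, 58 to 77 list genes and 10 members were called. Without injured 2, Necab2 was at -6.41. Necab1 was at -2.11 with injured 3 and 4 alone, and Pvalb at -3.38 without cells that held markers from a different class and at -3.44 with cells thinned to 8000 UMIs. The 16 list genes named kept their direction in every alternative, and 1 of 480 values was no longer past the threshold.

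With libraries 1 to 4 and the replicate number as a block, 7782 genes and all 10 members were called, against 8230 genes with no block. Calb1 was at -2.16 and Pvalb at -1.68 with the block, and Pvalb at -1.61 with no block. Both fits take injured 3 and 4, which share cells, as separate samples, so their counts rest on fewer distinct injured samples than 4. Same-numbered samples had correlations of -0.056, 0.014, -0.028 and -0.052 in their deviations from the mean of their condition, which gave no sign of pairs. Because injured 3 and 4 share cells, these deviations cannot exclude a pairing. Depth limits the members that injured RGCs nearly lack, with 35 UMIs each for Necab3 and Ppp1r17 in 4 libraries.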
